A study of Mus musculus with 10 samples.

Results

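The genes described here are 31 interferon-stimulated genes (ISGs), measured in the hippocampus of the Dp1Tyb mouse model of Down syndrome and of wild-type (WT) mice. They were chosen by gene symbol from lists of known interferon targets and effectors, and all 31 were found by Ensembl identifier among the 43629 genes of the count table. The name ISG is used for all of them, also for Irf3, a constitutive effector of the pathway. RNA sequencing was carried out on the whole hippocampus of 10 male mice aged 18 weeks by the labels (slightly older by the study's methods), 5 Dp1Tyb and 5 WT littermates of strain C57BL/6J.129P2, with 1 library per mouse. Dp1Tyb mice carry Dp(16Lipi-Zbtb21)1TybEmcf, a duplication from Lipi to Zbtb21 on mouse chromosome 16 that is present in every cell, so that genes in the segment have 3 copies in Dp1Tyb and 2 in WT. The labels name no infection or treatment. Mx1 and Mx2 lie in the segment and are given apart from the other 29 ISGs, which have 2 copies in both genotypes. Rtp4 and Parp14 are also on chromosome 16 but lie outside the segment.

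Type I interferons signal through the receptor subunits Ifnar1 and Ifnar2 and the kinases Jak1 and Tyk2 to a complex that contains Stat2 and Irf9. This complex binds the interferon-stimulated response element (ISRE) in the promoters of its targets, which encode RNA sensors, antiviral effectors, components of antigen presentation and factors such as Irf7 that extend the response. Genes for interferon receptor subunits lie in the duplicated segment, and the comparison of Dp1Tyb with WT asks whether the level of the targets differed along with their dosage. In brain without infection, low levels of many ISGs are maintained by constitutive signalling, and microglia, endothelial cells and the choroid plexus are among the cells that express them.

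The core of the ISRE was found in the promoters of some of these genes. RefSeq promoter windows (assembly GRCm38.p6, from 250 bases before to 50 bases after each annotated start) were found for 24 of the 31 ISGs. The letters GAAANNGAAA, searched on both strands and with overlapping matches counted separately, occurred in at least 1 window of 13 of these 24 genes (54.2%), against 3.99% of the 27025 genes with such windows. The 80-base stretches below belong to genes whose values are described next and end before the annotated start. Each is given 5′ to 3′ on the strand of its gene, with the matches in capitals. A match describes the letters only, and windows without one say nothing of what binds there.
Isg15 (chr4:156200847-156200926, minus strand): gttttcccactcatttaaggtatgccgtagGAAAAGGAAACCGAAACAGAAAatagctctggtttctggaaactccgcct
Ifit3 (chr19:34583343-34583422, plus strand): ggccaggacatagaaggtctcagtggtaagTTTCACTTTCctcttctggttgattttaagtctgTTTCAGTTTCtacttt
Ifit1 (chr19:34640755-34640834, plus strand): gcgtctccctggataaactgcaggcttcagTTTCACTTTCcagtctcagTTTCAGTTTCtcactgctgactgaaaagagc
Gbp3 (chr3:142559964-142560043, plus strand): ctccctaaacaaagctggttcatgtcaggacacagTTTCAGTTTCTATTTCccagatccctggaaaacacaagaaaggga
B2m (chr2:122147518-122147597, plus strand): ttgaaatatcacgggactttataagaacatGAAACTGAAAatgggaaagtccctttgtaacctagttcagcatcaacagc
Bst2 (chr8:71537553-71537632, minus strand): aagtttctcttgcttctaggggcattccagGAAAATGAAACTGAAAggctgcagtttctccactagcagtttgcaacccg

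In all, 3 overlapping matches follow each other in the Isg15 stretch, and overlapping pairs stand in those of Gbp3 and Bst2. In Gbp3 and both Ifit genes the letters run on the opposite strand, as TTTCNNTTTC. A second element, the interferon-gamma-activated site searched as TTCNNNGAA, was present in 6 of the 24 genes (25%), against 9.55% of all genes with windows. The windows of Irf3, Irf7, Irf9, Oasl2, Xaf1, Trim25, Psmb9 and Tap1 held neither set of letters.

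The libraries held between 18227684 (WT3) and 43692270 (Dp1Tyb1) counted reads, and their counts are given as CPM, which scales them to a common library size. A count of 0 allows up to 0.0687 to 0.165 CPM, depending on the library and for counting error only. The tissue was hippocampus by the labels. All 5 neuron markers (Prox1, Neurod2, Neurod6, Spink8 and Rbfox3) were expressed in every library, at summed levels of 606 to 690 CPM in WT and 620 to 643 CPM in Dp1Tyb. Of them edgeR called 0, and 1 was higher and 2 lower at an unadjusted p below 0.05, against 7.52% and 6.45% of all tested genes outside the segment. The libraries differed in choroid plexus RNA, a tissue next to the hippocampus. The summed level of 7 choroid plexus markers ranged from 423 to 5352 CPM in WT and from 37.8 to 3864 CPM in Dp1Tyb, and it was lowest in WT2, Dp1Tyb1 and Dp1Tyb4. In WT3, with the highest sum, Ttr alone was at 4888 CPM. Clic6, 1 of the 7, lies in the duplicated segment and had a log2 fold change of -0.40, against a median of -0.90 over the 7. It was kept in the mean marker level used in the fits below, so that level depends in part on gene copies. The summed level of 8 microglia markers ranged from 267 to 302 CPM in WT and from 214 to 283 CPM in Dp1Tyb, and that of 6 endothelial markers from 210 to 227 CPM and from 198 to 209 CPM. The summed level of 5 astrocyte markers ranged from 1259 to 1393 CPM in WT and from 1412 to 1484 CPM in Dp1Tyb. Of them 1, Gfap, was called as higher in Dp1Tyb (log2 fold change 0.26, edgeR adjusted p = 0.0167), where 0.870% of all tested genes were. Aqp4 was at 0.22 and Slc1a3 at 0.11 (edgeR adjusted p = 0.0721 and 0.330), and Gja1 and Aldh1l1 were at -0.08 and -0.01. DESeq2 called Gfap and Aqp4 (adjusted p = 8.84e-05 and 0.0125), where it called 2.70% of the genes outside the segment. The astrocyte and endothelial sums, to which abundant markers contribute most, did not overlap between genotypes. With every marker weighted equally they did, as the mean log2 deviation of the astrocyte markers was -0.0896 to 0.0152 in WT and 0.0150 to 0.109 in Dp1Tyb, and that of the endothelial markers -0.0184 to 0.102 and -0.117 to -0.0047. The 6 lymphocyte markers were too low to test, at summed levels of 0.591 to 0.976 CPM in WT and 0.757 to 3.01 CPM in Dp1Tyb, the highest in Dp1Tyb5.

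The level of the ISGs spanned a wide range. In RPKM, which is CPM divided by the length of the exons in kilobases, B2m was the highest at a mean of 82.1 over the 10 mice, followed by Ifi27 at 30.4, Ifitm3 at 10.1, Stat2 at 5.85, Irf3 at 5.71 and Bst2 at 5.37. These genes encode the light chain of MHC class I, a mitochondrial protein, a membrane protein that restricts virus entry, a STAT factor, an interferon regulatory factor and tetherin, which holds virus particles at the cell surface. Isg15, Ifit3, Irf9, Ifit2 and Irf1 lay between 2.09 and 2.71 RPKM. Rsad2, which encodes the antiviral protein viperin, was lower at 0.394 RPKM, as was the oligoadenylate synthetase gene Oas1a at 0.181 RPKM. Mx1 at 0.0964 and Zbp1 at 0.0838 RPKM were the lowest. The neighbours Stat2, Irf3 and Bst2 overlapped in their values, as did those from Isg15 to Irf1.

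**Figure D1:**
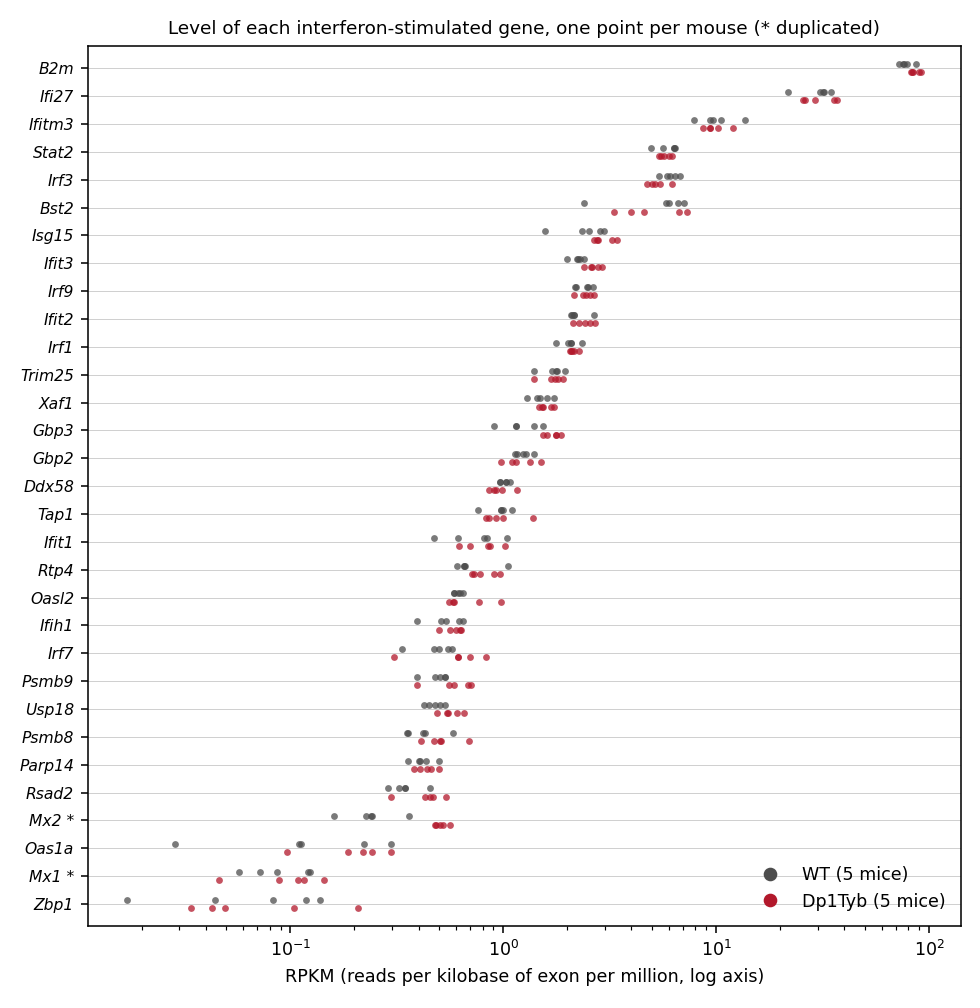
RPKM of each of the 31 ISGs on a log axis, with one point per mouse (grey WT, red Dp1Tyb) and genes ordered by their mean. B2m lies near 82.1 RPKM and Zbp1 near 0.0838 RPKM, and the genotypes overlap for most genes, while all 5 Dp1Tyb mice are above all 5 WT mice for Mx2 (asterisk), Gbp3 and Ifit3.

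Of the 29 ISGs outside the segment, 28 had enough reads to be tested, and 0 were called as differentially expressed between Dp1Tyb and WT (edgeR quasi-likelihood test, adjusted p below 0.05 over 17237 genes). Among all tested genes outside the segment 0.718% were called. The one ISG that was not tested was Zbp1, a sensor of Z-form nucleic acids, which had 2 to 16 reads per library. At an unadjusted p below 0.05 there were 4 ISGs by edgeR, higher in Dp1Tyb for Gbp3, B2m and Ifit3 and lower for the constitutive effector Irf3, against a share of 14.0% among all tested genes outside the segment. DESeq2 called 1 of them, Gbp3, where it called 2.70% of the genes outside the segment, and limma voom called 0. In bulk tissue, a change in the number of cells of a type and a change in RNA per cell cannot be told apart, and the p-values measure the spread between these 10 mice.

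The differences were small and leaned to the higher side. The log2 fold change was above 0 for 21 of the 28 ISGs, against 48.4% of all tested genes outside the segment. This number depended on the processing, from 17 to 23 over 8 alternative runs, and was 20 to 22 when any 1 mouse was left out. The median log2 fold change of the 28 ISGs was 0.10, against -0.0041 over all tested genes, and it lay between 0.06 and 0.13 when any 1 mouse was left out. Since the ISGs were chosen with results of these data known, this median carries no test. In single mice, the median deviation of these 28 ISGs from their means over 10 mice was -0.10 in WT2 and WT3, -0.06 in WT4, 0.04 in WT5 and 0.05 in WT1. It was 0.01, 0.03, 0.05, 0.06 and 0.16 in Dp1Tyb3, Dp1Tyb2, Dp1Tyb1, Dp1Tyb4 and Dp1Tyb5. The genotypes overlapped, since WT1 and WT5 lay above Dp1Tyb2 and Dp1Tyb3. The highest value was in Dp1Tyb5, the mouse with the highest lymphocyte markers, and Dp1Tyb3, with the lowest Dp1Tyb value, had the lowest microglia markers. Astrocyte markers were on average higher and endothelial markers lower in Dp1Tyb, with the overlap given above. Microglia and choroid plexus markers were on average lower in Dp1Tyb and overlapped between genotypes. Their mean log2 deviations were 0.052 in WT and -0.052 in Dp1Tyb for microglia, and 0.83 and -0.83 for choroid plexus. The part of these cell types in the ISG values was not tested.

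The intervals limit how large an increase could have been missed. For 21 of the 28 ISGs the 95% interval of the fold change ended below 1.5-fold, the ratio of gene copies of the duplicated segment. The 7 others were Irf7, Oas1a, Rsad2, Isg15, Gbp3, Psmb8 and Psmb9. The interval passed 2-fold for Oas1a alone, where it reached 2.44-fold on 1 to 18 reads per library. Only the upper ends were counted here, and the lower end for Bst2 was 0.613-fold.

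**Figure D2:**
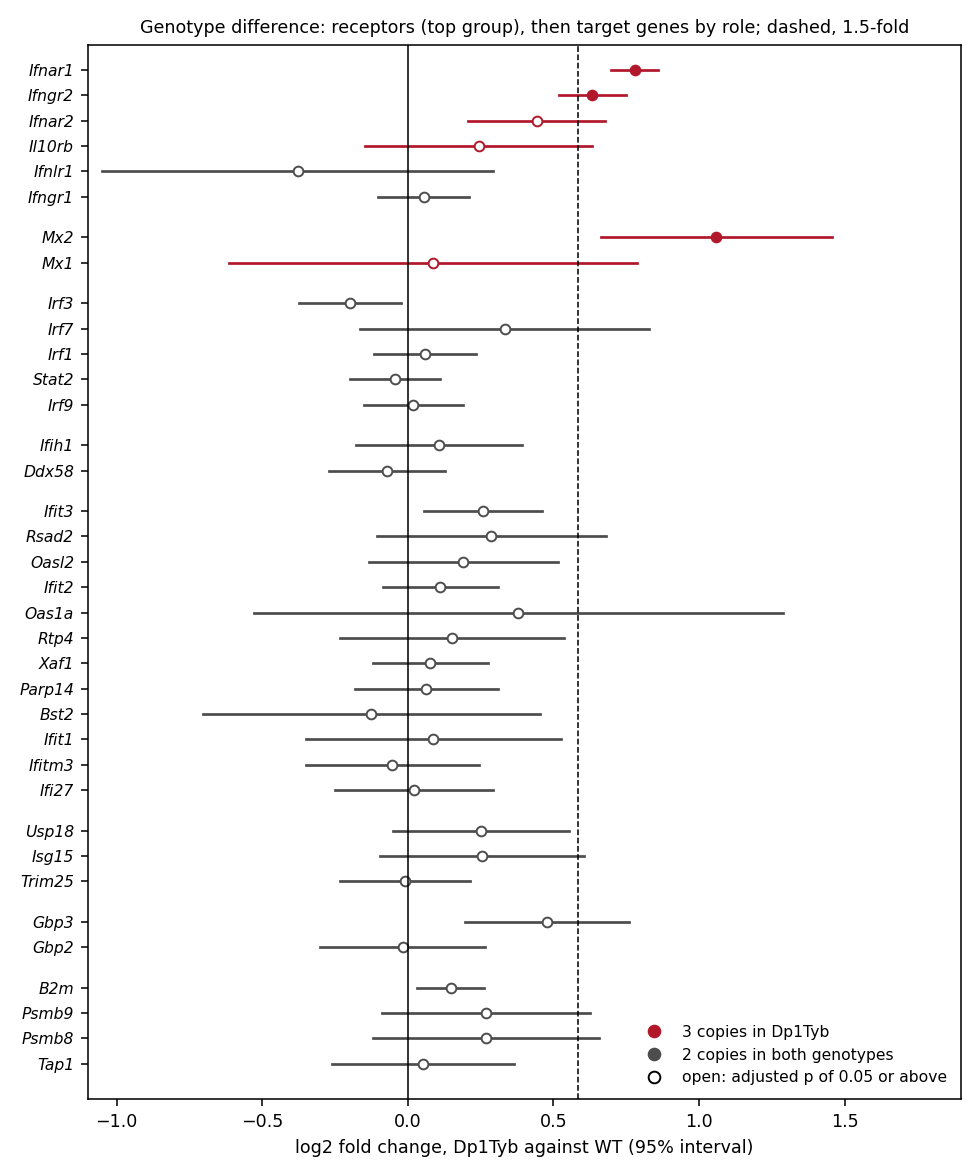
The log2 fold change of Dp1Tyb against WT with its 95% interval for 6 interferon receptor genes (top) and the 30 tested ISGs grouped by role, red for genes in the duplicated segment and filled where the adjusted p was below 0.05. Ifnar1, Ifngr2 and Mx2 are the 3 filled points, and the grey points of ISGs outside the segment lie between -0.20 and 0.48 with open symbols.

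Among the transcription factors, Irf3 had the smallest p. Irf3 is the constitutive factor that starts interferon transcription after nucleic acids are sensed. It was measured at 23.2, 20.2, 18.7, 20.8 and 22.0 CPM in WT1 to WT5 and at 17.3, 17.8, 18.8, 16.3 and 21.4 CPM in Dp1Tyb1 to Dp1Tyb5. The values overlapped, as Dp1Tyb5 lay above 3 of the WT mice and WT3 below Dp1Tyb3. The log2 fold change was -0.20 ± 0.08 (SE), which missed the threshold (edgeR adjusted p = 0.289). The exons of Irf3 share 88 bases with Bcl2l12 on the other strand, so its count depends on how reads over both genes were assigned, a setting not given in the sources used here.

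Irf7, the interferon-induced factor that amplifies the response, varied widely between mice of one genotype. It was 2.18, 2.08, 1.79, 1.88 and 1.26 CPM in WT1 to WT5 and 2.64, 1.15, 2.32, 3.15 and 2.33 CPM in Dp1Tyb1 to Dp1Tyb5. All but Dp1Tyb2 lay above every WT mouse, while Dp1Tyb2 was the lowest of the 10. Its difference of 0.33 ± 0.23 on the log2 scale (SE) missed the threshold (edgeR adjusted p = 0.532). The value moved with single mice, to 0.19 without Dp1Tyb4 and 0.50 without Dp1Tyb2, and it was 0.13 with the choroid plexus level in the fit and 0.078 without the 3 mice with the least choroid plexus RNA. The components of the signalling complex had log2 fold changes of -0.05 ± 0.07 for Stat2 and 0.02 ± 0.08 for Irf9 (adjusted p = 0.802 and 0.936). Irf1, a factor of the interferon-gamma response, was at 0.06 ± 0.08 (adjusted p = 0.777).

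Since Irf7 differed between mice, the ISGs were compared with its level in a fit with genotype. None of the 27 other tested ISGs outside the segment was associated with Irf7 (edgeR, 0 at an adjusted p below 0.05 and 0 at an unadjusted p below 0.05). Of the 17236 other genes, 0% were associated after adjustment and 3.73% before it. The fit had little reach, since Irf7 did not pass against its own level (adjusted p = 0.276). Without Dp1Tyb2, the mouse with the least Irf7, 2 of the 27 had an unadjusted p below 0.05 and 0 were called, where 0.0290% of all genes tested were called. With the level of Oasl2 in place of that of Irf7, 0 of 26 ISGs and 0.650% of 17235 genes were called. The mice with the most Irf7 were Dp1Tyb4 and Dp1Tyb1, and in the median deviation of the 28 ISGs, which include Irf7, they came next after Dp1Tyb5. WT1 was close behind, at 0.051 against 0.054 in Dp1Tyb1. Dp1Tyb4 and Dp1Tyb1 also had the least choroid plexus RNA, at a mean marker level of 1.24 and 1.15 log2 CPM. A link between these orders was not tested.

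Both tested RNA sensors, whose products detect viral RNA in the cytoplasm, overlapped between genotypes. Ifih1, which encodes MDA5, had a log2 fold change of 0.11 ± 0.13 (adjusted p = 0.744). Ddx58, which encodes RIG-I, had a log2 fold change of -0.07 ± 0.09 (adjusted p = 0.751). Their means in WT were 4.42 ± 0.822 and 7.14 ± 0.343 CPM (SD, n = 5).

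Ifit3 was the antiviral effector with the smallest p. The Ifit genes encode proteins with tetratricopeptide repeats that bind viral RNA or support antiviral signalling. Ifit3 was 3.86, 3.91, 3.47, 4.0 and 4.2 CPM in WT1 to WT5 and 5.09, 4.86, 4.2, 4.54 and 4.52 CPM in Dp1Tyb1 to Dp1Tyb5. Every Dp1Tyb mouse lay above every WT mouse, by a narrow margin between Dp1Tyb3 and WT5. Ifit3 had a log2 fold change of 0.26 ± 0.09 (SE, 1.2-fold, 95% interval 1.04 to 1.38), which missed the threshold (edgeR adjusted p = 0.243). Non-overlapping values with Dp1Tyb higher were found for Ifit3 and Gbp3 among the 28 ISGs, against a share of 2.16% of all tested genes outside the segment, and with Dp1Tyb lower for 0 ISGs, against 1.13%. The near-identical copy Ifit3b, named for that reason, had a mean of 2.15 ± 0.597 CPM among WT mice and 2.67 ± 0.144 CPM among Dp1Tyb mice. Reads that matched both copies were discarded by the authors.

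The other effectors showed no call. Ifit2 and Ifit1 had log2 fold changes of 0.11 ± 0.09 and 0.09 ± 0.20, and Oasl2, a ubiquitin-like protein of the oligoadenylate synthetase family, one of 0.19 ± 0.15. In Oasl2 the WT mice lay within 3.74 to 4.12 CPM, and Dp1Tyb1 and Dp1Tyb4 stood above at 4.93 and 6.21 CPM. Rtp4, Xaf1 and Parp14 lay between 0.06 and 0.15. Adjusted p-values of these 6 genes were between 0.589 and 0.875 (edgeR).

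Per exon length, Rsad2 and Oas1a were the lowest of the tested ISGs outside the segment. Rsad2 was 1.24, 1.5, 1.41, 1.97 and 1.49 CPM in WT1 to WT5 and 1.28, 1.85, 1.96, 2.03 and 2.33 CPM in Dp1Tyb1 to Dp1Tyb5. Dp1Tyb4 and Dp1Tyb5 lay above all WT mice and Dp1Tyb1 below 4 of them. Oas1a had 18, 5, 1, 7 and 9 reads in WT1 to WT5 and 18, 10, 14, 15 and 4 reads in Dp1Tyb1 to Dp1Tyb5. Oas1a reads overlapped between the genotypes, and at this depth its 95% interval ran from 0.693-fold to 2.44-fold around a log2 fold change of 0.38 ± 0.42, which was 0.18 without WT3 and 0.80 without WT1. That of Rsad2 was 0.29 ± 0.18 (edgeR adjusted p = 0.496, and 0.71 for Oas1a).

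Bst2 and Ifi27 followed the amount of choroid plexus RNA. Bst2 was 5.41, 2.16, 6.40, 5.24 and 5.97 CPM in WT1 to WT5 and 3.0, 4.13, 6.04, 3.60 and 6.57 CPM in Dp1Tyb1 to Dp1Tyb5. WT2, Dp1Tyb1 and Dp1Tyb4, the mice with the least choroid plexus RNA, were the 3 lowest of the 10. Ifi27 was 46.5, 32.0, 47.0, 45.0 and 50.8 CPM in WT1 to WT5 and 37.6, 42.7, 52.2, 38.5 and 54.1 CPM in Dp1Tyb1 to Dp1Tyb5. The same 3 mice were again the lowest. In a fit with genotype, Bst2 rose by 0.22 ± 0.04 (SE) and Ifi27 by 0.11 ± 0.02 log2 units for each log2 unit of the mean choroid plexus marker level (edgeR adjusted p = 0.00549 and 0.00166), a measure chosen after the data were seen. They were the 2 ISGs called among 28, against 3.56% of 17230 genes (3.45% higher with it). Both kept the call when any 1 mouse was left out, while with the replicate number as a block Bst2 lost it (adjusted p = 0.0704). Oasl2 had a slope of the opposite sign, -0.10 ± 0.03, which missed the threshold (adjusted p = 0.138, unadjusted p = 0.00862). At an unadjusted p below 0.05 there were thus 3 of 28 ISGs, against 14.7% of all genes. Whether Bst2 and Ifi27 differ in this from the other ISGs was not tested.

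The log2 fold changes of both genes were higher with the choroid plexus level in the fit, and neither was called. Bst2 had a log2 fold change of -0.13 ± 0.27 between genotypes and of 0.25 with that level in the fit (edgeR adjusted p = 0.863 and 0.606). Ifi27 was at 0.02 ± 0.13 and, with that level, at 0.20 (adjusted p = 0.959 and 0.260). Ifitm3 was 9.27, 5.33, 6.34, 7.11 and 6.53 CPM in WT1 to WT5 and 5.91, 6.89, 6.36, 6.33 and 8.17 CPM in Dp1Tyb1 to Dp1Tyb5. WT1 was the highest and WT2 the lowest, so that the WT mice enclosed all Dp1Tyb mice, and the log2 fold change was -0.05 ± 0.14 (adjusted p = 0.892). For Ifit3 and B2m the association with the choroid plexus level missed the threshold (adjusted p = 0.812 and 0.913).

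**Figure D3:**
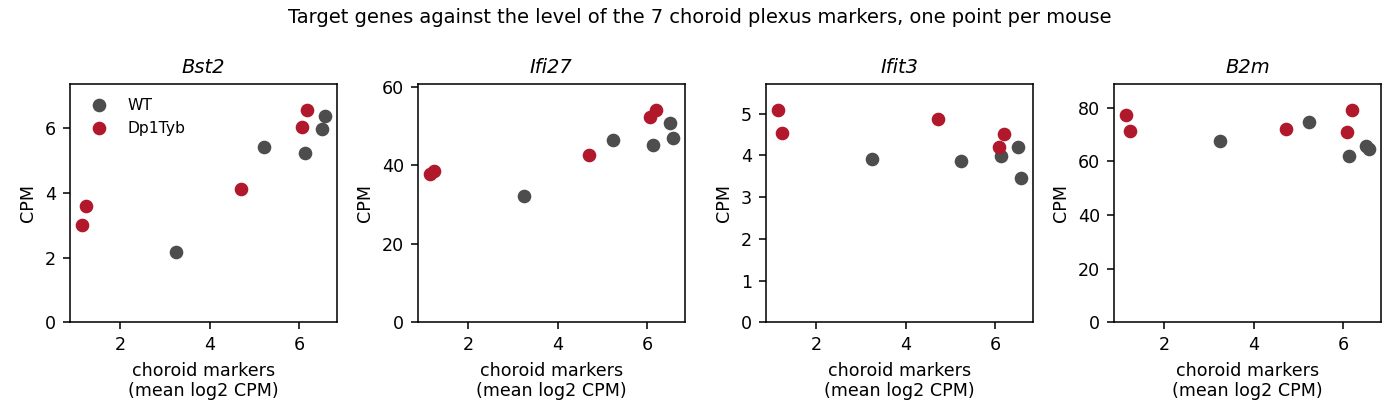
CPM of Bst2, Ifi27, Ifit3 and B2m in each mouse (grey WT, red Dp1Tyb) against the mean log2 CPM of 7 choroid plexus markers. The 3 mice with the least choroid plexus RNA, at 1.15, 1.24 and 3.24 on the horizontal axis, are the lowest for Bst2 and Ifi27, while Ifit3 and B2m show no such order.

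Isg15 and Usp18 encode a ubiquitin-like modifier and the protease that removes it and dampens interferon signalling. Isg15 was 2.24, 2.16, 1.19, 1.91 and 1.77 CPM in WT1 to WT5 and 2.02, 2.10, 2.08, 2.58 and 2.46 CPM in Dp1Tyb1 to Dp1Tyb5. WT1 and WT2 lay within the Dp1Tyb values, and WT3, with 22 reads, was the lowest. Usp18 was 1.34, 1.41, 1.25, 1.18 and 1.49 CPM in WT1 to WT5 and 1.51, 1.54, 1.36, 1.70 and 1.82 CPM in Dp1Tyb1 to Dp1Tyb5. All Dp1Tyb mice but Dp1Tyb3 lay above all WT mice. The log2 fold changes were 0.25 ± 0.16 for Isg15 and 0.25 ± 0.14 for Usp18, neither called (edgeR adjusted p = 0.499 and 0.438). Trim25, a ubiquitin ligase that acts on RIG-I, was at -0.01 ± 0.10 (adjusted p = 0.977).

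Gbp3 was the ISG outside the segment with the smallest p. Guanylate-binding proteins are GTPases that attack the vacuoles of intracellular pathogens and are induced above all by interferon-gamma. Gbp3 was 3.76, 2.95, 3.74, 4.57 and 5.04 CPM in WT1 to WT5 and 5.80, 5.04, 6.08, 5.79 and 5.25 CPM in Dp1Tyb1 to Dp1Tyb5. All Dp1Tyb mice lay above all WT mice, but Dp1Tyb2 and WT5 differed only beyond the digits given. The WT mean of 4.01 ± 0.809 CPM compared with a Dp1Tyb mean of 5.59 ± 0.431 CPM (SD over 5 mice each), which is a log2 difference of 0.48 ± 0.13 (SE, 1.39-fold, 95% interval 1.14 to 1.69). The adjusted p was 0.111 by edgeR and 0.0254 by DESeq2, so that the call depends on the tool. Gbp2 was at -0.02 ± 0.13 (edgeR adjusted p = 0.965).

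The 4 ISGs of antigen presentation had log2 fold changes above 0. B2m was 74.8, 67.8, 64.6, 62.0 and 65.8 CPM in WT1 to WT5 and 77.2, 72.2, 71.1, 71.4 and 79.2 CPM in Dp1Tyb1 to Dp1Tyb5. WT1 lay within the Dp1Tyb values and the other WT mice below them. B2m thus had a log2 fold change of 0.15 ± 0.05 (SE, 1.11-fold, 95% interval 1.02 to 1.2), which missed the threshold (edgeR adjusted p = 0.238). Psmb9, a subunit of the immunoproteasome, was 1.74, 1.96, 1.95, 1.85 and 1.45 CPM in WT1 to WT5 and 2.59, 2.03, 1.44, 2.15 and 2.51 CPM in Dp1Tyb1 to Dp1Tyb5. All but Dp1Tyb3, the lowest of the 10, lay above all WT mice, and the log2 fold change was 0.27 ± 0.17 (adjusted p = 0.485). Psmb8, a second subunit, was at 0.27 ± 0.18, and the peptide transporter Tap1 at 0.05 ± 0.14 (adjusted p = 0.519 and 0.902). Exons of Psmb9 and Tap1 share 212 bases on opposite strands, and those of Psmb8 share 498 bases with a noncoding gene. In all, 11 of the 31 ISGs share exon bases with another gene, on the same or the other strand.

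**Figure D4:**
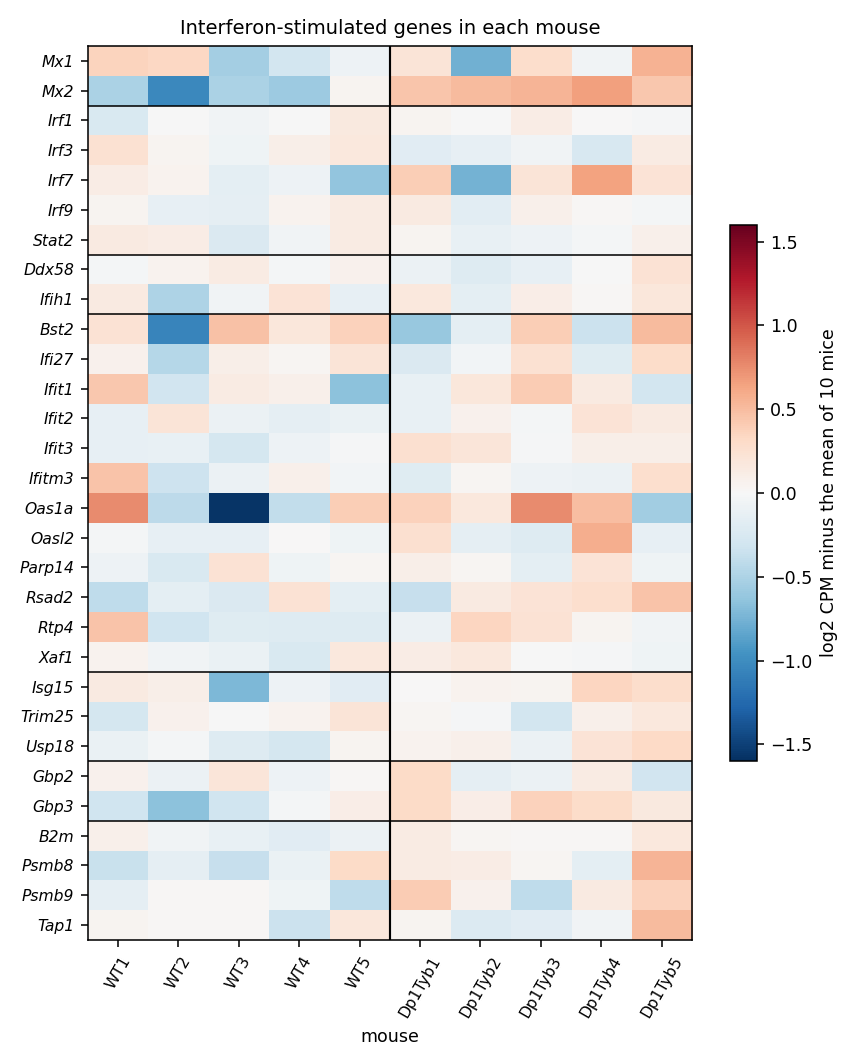
Log2 CPM of each of the 30 tested ISGs (rows, grouped by role) in each of the 10 mice (columns, WT to the left of the line) as the difference from the mean of the 10 mice, red above and blue below. Mx2 is below its mean in 4 of the WT mice and above it in all 5 Dp1Tyb mice, while low values of Bst2 and Ifi27 fall in WT2, Dp1Tyb1 and Dp1Tyb4.

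Mx2 was the one ISG called by edgeR, higher in Dp1Tyb, and it lies in the duplicated segment (chromosome 16, 97535308 to 97560900, plus strand, GRCm38). Mx proteins are dynamin-like GTPases with antiviral activity, and common laboratory strains carry defective alleles of both genes. The GENCODE annotation lists Mx2 as a polymorphic pseudogene. Mx2 had 28, 14, 16, 27 and 28 reads in WT1 to WT5 and 76, 52, 47, 67 and 38 reads in Dp1Tyb1 to Dp1Tyb5. In CPM this was 0.871, 0.582, 0.868, 0.817 and 1.31 in WT and 1.74, 1.82, 1.88, 2.03 and 1.73 in Dp1Tyb, so that all Dp1Tyb mice lay above all WT mice. On the log2 scale the difference was 1.06 ± 0.18 (SE), past the threshold (edgeR adjusted p = 0.0117). The fold of 2.08 had a 95% interval of 1.58 to 2.74, which lay above the 1.5-fold of the gene copies. Mx2 had the highest log2 fold change of the 114 tested genes of the segment, of which 59.6% were called, all higher, with a median of 0.53, while 0.870% of all tested genes were called as higher. Bace2 and Chaf1b were close to it, at 1.04 ± 0.32 and 1.03 ± 0.26, and the rank was not tested. The interval of the receptor gene Ifnar1, from 1.62 to 1.82, also lay above 1.5-fold. Without the 3 mice with the least choroid plexus RNA Mx2 was at 0.92 and no longer passed the threshold (adjusted p = 0.124, 7 mice).

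Mx1 (chromosome 16, 97447035 to 97462907, minus strand) did not share the difference of its neighbour. It had 15, 11, 4, 9 and 7 reads in WT1 to WT5 and 18, 5, 11, 11 and 12 reads in Dp1Tyb1 to Dp1Tyb5. These overlapped, with the highest CPM in Dp1Tyb5 (0.548) and the lowest in Dp1Tyb2 (0.175). Its difference on the log2 scale was 0.09 ± 0.32 (edgeR adjusted p = 0.927), rank 101 of the 114 tested genes of the segment. Its 95% interval from -0.61 to 0.79 held both 0 and 0.58, the log2 of 1.5, so that a change in step with the gene copies was not distinguishable from none at this depth, and the sign turned when WT3, WT4 or Dp1Tyb5 was left out, with the lowest value at -0.05. The difference between Mx1 and Mx2 itself was not tested.

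**Figure D5:**
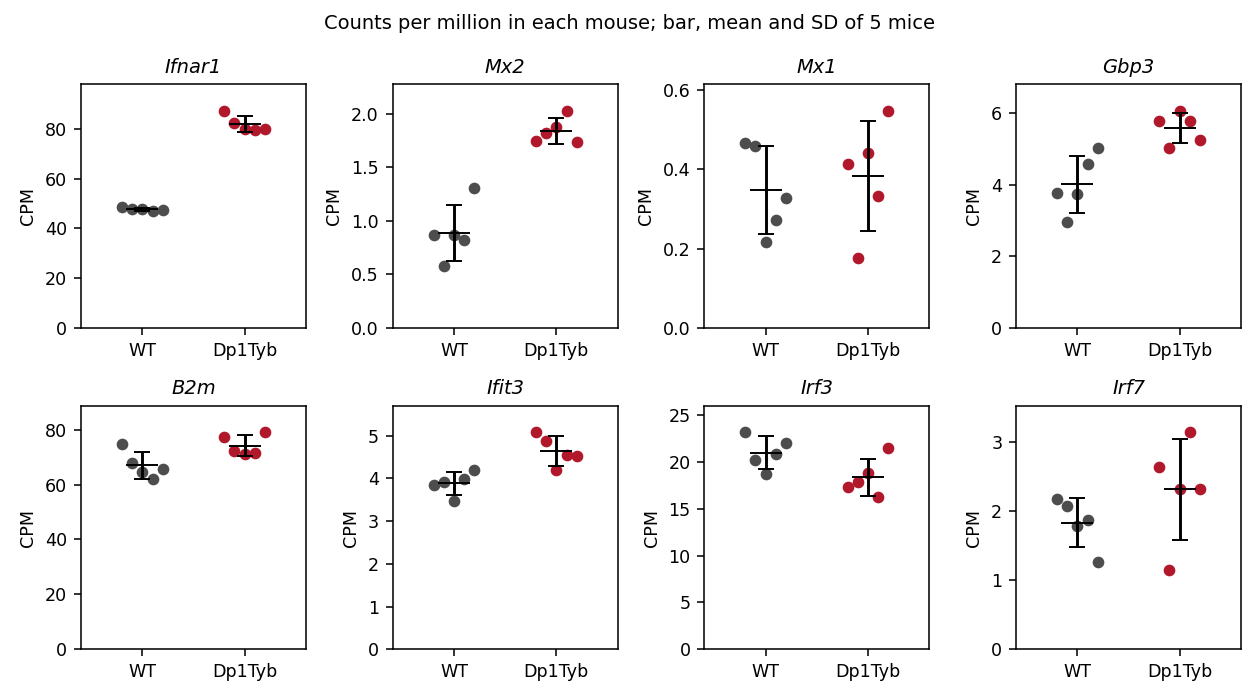
CPM in each of 5 WT (grey) and 5 Dp1Tyb (red) mice for Ifnar1, Mx2, Mx1, Gbp3, B2m, Ifit3, Irf3 and Irf7, with the mean and SD as bars and every axis starting at 0. The genotypes are apart for Ifnar1 and Mx2, touch for Gbp3 and Ifit3 and overlap for the others.

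Of 4 receptor genes in the segment edgeR called 2 as higher, where 59.6% of the tested genes of the segment were, and interferon genes had almost no reads. In the segment, the type I receptor subunit Ifnar1 rose from 47.1 to 48.7 CPM in WT to 79.3 to 87.3 CPM in Dp1Tyb (log2 fold change 0.78 ± 0.04, edgeR adjusted p = 2.36e-07), and the interferon-gamma receptor subunit Ifngr2 from 49.0 to 54.9 CPM to 72.7 to 85.3 CPM (0.63 ± 0.05, adjusted p = 1.62e-05). Ifnar2 was at 0.44 ± 0.11 and Il10rb, a subunit of the type III receptor, at 0.24 ± 0.18, and neither was called (adjusted p = 0.0744 and 0.562). DESeq2 did call Ifnar2 (adjusted p = 0.00578). Over 8 alternative runs Ifnar2 lay between 0.44 and 0.57 and Il10rb between 0.23 and 0.46. Their slopes against the choroid plexus level were 0.08 ± 0.02 and 0.12 ± 0.04, which missed the threshold (edgeR adjusted p = 0.0709 and 0.103). The exons of Ifnar2 and Il10rb share 315 and 569 bases with Gm21970 on the same strand, so their counts depend on how such reads were assigned. Both partner subunits outside the segment, Ifngr1 and Ifnlr1, were at 0.05 ± 0.07 and -0.38 ± 0.31. Of 11 interferon genes, 9 had no read in any library, Ifna2 had 1 read in Dp1Tyb1, and Ifng had 1 read in Dp1Tyb1 and 2 in Dp1Tyb3. Reads with several alignments were discarded by the authors, so reads shared between similar interferon genes are not in these counts.

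Among other genes of the pathway, on lists chosen with earlier results known, Ifnar1 and Ifngr2 were the 2 called of 96 tested, where 1.11% of all tested genes were called. Of the 92 outside the segment edgeR called 0, and 14 had an unadjusted p below 0.05 (11 higher and 3 lower, against 7.52% and 6.45% of all tested genes outside the segment). DESeq2 called 1 of the 92, Jak1, where it called 2.70% of the genes outside the segment. Jak1, the kinase shared by the interferon receptors, was 204 to 219 CPM in WT and 224 to 238 CPM in Dp1Tyb, without overlap. Such non-overlap with Dp1Tyb higher was found for 1 of the 92, against 2.16% of all tested genes outside the segment. The log2 fold change of Jak1 was 0.12 ± 0.03 (adjusted p = 0.106 by edgeR and 0.0243 by DESeq2).

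In the other lists, the genes with the smallest p missed the threshold as well. Among 14 tested genes of nucleic acid sensing, Dhx58, which encodes LGP2, had a log2 fold change of 0.56 ± 0.19 and Tlr7, a receptor for RNA in endosomes, of -0.39 ± 0.15 (edgeR adjusted p = 0.205 and 0.285). Among 9 negative regulators, the phosphatase gene Ptpn1 was at -0.09 ± 0.04 and Socs3 at -0.32 ± 0.18 (adjusted p = 0.325 and 0.442). Among 40 other interferon targets, with a median of 0.06, Samd9l was at 0.36 ± 0.12 and Ifi35 at -0.49 ± 0.20 (adjusted p = 0.215 and 0.298).

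The lists closest to Gbp3 and B2m held genes with positive, negative and near-zero differences. Among 9 tested guanylate-binding proteins and immunity-related GTPases, 7 had log2 fold changes above 0, against 48.4% of all tested genes outside the segment, and 4 of these an unadjusted p below 0.05, against 7.52%. Their median was 0.05, with Tgtp1 the lowest at -0.52 ± 0.52 (edgeR adjusted p = 0.675). Gbp4 was 2.52, 3.49, 4.5, 3.21 and 4.57 CPM in WT1 to WT5 and 8.85, 4.34, 5.68, 4.88 and 4.61 CPM in Dp1Tyb1 to Dp1Tyb5, with Dp1Tyb1 far above the rest. Its log2 fold change was 0.66 ± 0.21 (0.43 without Dp1Tyb1) and that of Gbp7, next to Gbp3 on chromosome 3, was 0.27 ± 0.10 (edgeR adjusted p = 0.181 and 0.248). Among 14 genes of antigen presentation, with a median of 0.12, the MHC class I heavy chain H2-D1 was at 0.21 ± 0.09 and the proteasome activator subunit Psme2 at 0.16 ± 0.07 (adjusted p = 0.285 and 0.290). Of these 14 genes 9 were above 0, and the nonclassical class I gene H2-T23 was the lowest at -0.19 ± 0.12 (adjusted p = 0.494). Guanylate-binding protein and MHC class I genes have near-identical relatives that share reads, so their single values are uncertain.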

How the data were processed

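Stranded poly(A) RNA-seq libraries of 5 WT and 5 Dp1Tyb hippocampi were used. As given in the submitters' processing notes and the study's methods, the authors used Trim Galore to trim the reads, TopHat2 2.0.12 to map them to GRCm38, and HTSeq to count those on each Ensembl gene. They discarded reads with several alignments. The strand setting and annotation release are not given in the sources used here. The deposited counts are whole numbers, not normalized, for 43629 genes in 10 samples, with 0 columns left unmapped. A deposited table of normalized values and one of the authors' own DESeq2 comparison (mean, fold change and p-values per gene) were not used.

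Symbols, exon lengths and overlaps came from GENCODE M21 (GRCm38), which held 42548 of the identifiers. Genes passing filterByExpr (17237) were tested with edgeR 4.0.16 (R 4.3.3; TMM, quasi-likelihood F-test, Benjamini-Hochberg adjustment over all tested genes, threshold 0.05). CPM values are TMM-scaled, and RPKM divide them by the exon length in kilobases. DESeq2 1.42.0, limma 3.58.1 (voom), other scalings and filters, a replicate block, a choroid plexus covariate and leaving out each mouse were alternatives. A fit without the 3 mice with the least choroid plexus RNA was added after seeing the data. The pipeline was tested on simulated data. No pair of libraries was identical.

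The ISGs, pathway lists and markers were chosen with earlier results of these data known. Values per mouse are given for Mx1, Mx2, the 6 ISGs outside the segment with the smallest p, the 3 with the highest and the 2 with the lowest RPKM, and Irf7, Isg15 and Ifit3, and, from each other pathway list, the called genes and the 2 with the smallest p are named. Bst2, Oasl2, Ifit3b, Tgtp1, H2-T23 and the per-mouse values of Gbp4 were added after their values were seen. One gene that this rule names is not reported here.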

Additional observations from a re-analysis of the deposited data

Results flagged for a closer look

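Values of single mice that stood apart from the other 4 of their genotype by Dixon's criterion (gap over range above 0.71) were found in 5 of 80 groups examined, where chance gives about 4. WT2 was the lowest WT mouse for Bst2, at 1.16 log2 CPM with the others between 2.41 and 2.69, and for Ifi27, at 5.005 log2 CPM with the others between 5.495 and 5.67. WT2 also had the least choroid plexus RNA of the WT mice. It was the highest WT mouse for Ifit2, at 3.394 log2 CPM with the others between 3.043 and 3.092. Rtp4 was highest in WT1, at 1.208 log2 CPM with the others between 0.4444 and 0.5664. The microglia markers were lowest in Dp1Tyb3, at a mean deviation of -0.3233 log2 CPM with the others between -0.016 and 0.046. No explanation of these values was tested.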

How the results depend on the processing

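The count of ISGs outside the segment that were called stayed at 0 in every alternative run except DESeq2, which called 1, and in each of the 10 fits without 1 mouse. For the other pathway genes the count was 2, with a range of 2 to 3 without 1 mouse and 4 by DESeq2, which added Ifnar2 and Jak1. Mx2 kept its call except without the 3 mice with the least choroid plexus RNA (log2 fold change 0.918), and ranged from 0.94 to 1.22 without 1 mouse. Without those 3 mice, 1 ISG outside the segment, in place of 4, had an unadjusted p below 0.05. Ifnar2 was called in 5 of 8 alternatives and without Dp1Tyb4. Of the ISGs outside the segment, 17 to 23 had a log2 fold change above 0 over the 8 alternatives, and 20 to 22 without 1 mouse. Signs were followed by name only for the genes chosen by the rule above and Bst2. Among these, the signs of 4 genes that were not called turned. With the choroid plexus level in the fit Bst2 was at 0.25 and Ifitm3 at 0.031. Without 1 mouse, Mx1 ranged from -0.046 to 0.26, Ifi27 from -0.080 to 0.080, Ifitm3 from -0.14 to 0.081 and Bst2 from -0.32 to 0.0069. Correlations of the deviations of mice with the same number in their names were 0.212 to 0.277 for 3 of the 5 pairs and below 0 for the other two, and in 1 pair the correlation was above those of its WT mouse with the other Dp1Tyb mice, so that the numbers were not taken as a pairing. With the replicate block, 315 genes in place of 191 were called over the whole table, 0 ISGs and 3 other pathway genes were called, Mx2 was at 1.08, and of the 2 ISGs associated with the choroid plexus level 1 was called (Ifi27; Bst2 adjusted p = 0.0704). Depth limits Mx1, Zbp1 and Oas1a most.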
